A study of Mus musculus with 3 samples.

Results

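Cytotoxic CD4 T cells are CD4 T cells that carry the killing machinery better known from CD8 T cells and natural killer (NK) cells. CD4 T cells mostly act by helping other immune cells, through cytokines and contact signals such as CD40 ligand. A small number instead stores perforin, which opens the membrane of a target cell, and granzymes, proteases that enter through it, and such cells are known from chronic infection and autoimmune disease. The transcription factors Eomes, T-bet (Tbx21) and Runx3 are known to promote this programme, whereas Tcf7 and ThPOK (Zbtb7b) are tied to the helper and resting states.

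Here they were picked out by their transcripts from CD45+ (immune) cells of the sciatic nerve of NOD.AireGW/+ mice with neuropathy. The mice are NOD, a strain prone to autoimmune disease, with 1 copy of an Aire allele of reduced function, and their nerves become inflamed without immunisation. There were 3 libraries, the first and second with 1 mouse each and the third with a pool of 2, all in the same neuropathic group, so no healthy or treated animals were compared. A member had at least 1 UMI (unique molecular identifier, 1 captured transcript) of Cd3d, Cd3e or Cd3g and of Cd4, no UMI of Cd8a, Cd8b1, Foxp3, Il21, Il10 or Cd79a, at most 1 C1q UMI, and UMIs of at least 2 of 5 cytotoxic genes. The 5 genes were Klrd1, which encodes CD94, Prf1 for perforin, Gzmb and Gzmc for granzymes B and C, and Nkg7, a granule membrane protein. In all, 140 of 13637 cells passed, 72 of 3848 in library 1, 58 of 8256 in library 2 and 10 of 1533 in library 3.

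These cells made up 8.05% of the CD4 T cells in library 1 (exact 95% binomial interval 6.35 to 10.0), 5.48% in library 2 (4.18 to 7.02) and 4.72% in library 3 (2.28 to 8.50), a mean of 6.08% ± 1.75 (SD, n = 3 libraries). Intervals cover counting error only. The median member had 3456.5, 2949.5 and 2468.5 UMIs in libraries 1 to 3, against 2791, 2370 and 1757.5 in the other CD4 T cells, so members were the deeper cells. With each cell thinned to 1000 UMIs the share was 5.05% ± 0.988. The barcodes that libraries shared numbered 36, 7 and 14 for the 3 pairs.

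Nkg7 was the gene that most members had in common, with a UMI in 135 of 140, followed by Klrd1 in 71, Gzmb in 69, Prf1 in 32 and Gzmc in 5. The most frequent combinations were Gzmb with Nkg7 alone, in 51 members, and Klrd1 with Nkg7 alone, in 48. Most members sat at the threshold, since 58 of 72, 50 of 58 and 9 of 10 had UMIs of exactly 2 of the 5 genes. Requiring 3 genes left 14, 8 and 1 cells, or 0.931% ± 0.568 of CD4 T cells. The 5 genes chose the cells, so these counts are a description.

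Other T cells met the same gene requirement. At least 2 of the 5 genes had a UMI in 10.6% ± 4.91 of CD4 T cells without Foxp3, Il21 or Il10 UMIs, in 28.8% ± 2.08 of Foxp3-positive CD4 T cells and in 65.6% ± 14.0 of CD8 T cells (SD, n = 3 libraries). After thinning to 1000 UMIs a cell these shares were 4.76% ± 1.24, 11.9% ± 7.04 and 43.5% ± 8.89. In B cells, which should lack the genes, the share was 1.55% ± 2.69 before and 0.302% ± 0.522 after thinning, with a UMI pair in 11 of 236, 0 of 368 and 0 of 81 B cells, and the count of 0 allows up to 0.815% in library 2 and 3.70% in library 3. The B cells had median depths of 3948.5, 3142 and 1710 UMIs.

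**Figure D1:**
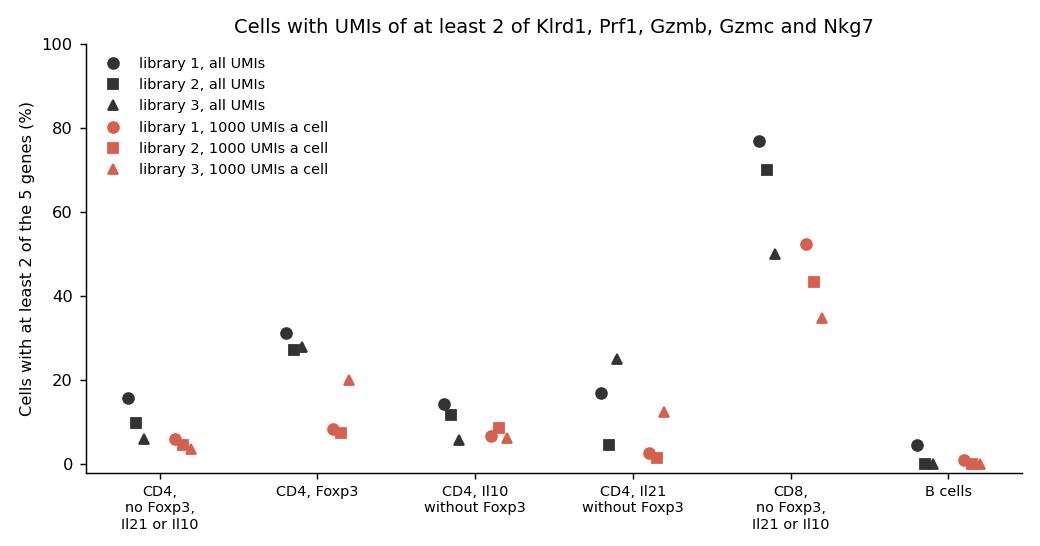
Share of cells (%, y axis) with a UMI of at least 2 of Klrd1, Prf1, Gzmb, Gzmc and Nkg7 in 6 cell states (x axis), 1 point per library (circle, square and triangle for libraries 1 to 3), with all UMIs in black and after thinning to 1000 UMIs a cell in red. CD8 T cells lay highest in every library, and CD4 T cells without Foxp3, Il21 or Il10 UMIs lay above B cells in every library. In library 3 after thinning their share was 3.62%, within the 4.11% that the count of 0 in 73 B cells allows.

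Checks of the label gave a mixed answer. T cell receptor beta variable (Trbv) transcripts, which only rearranged T cells should make, were present in 66 of 72, 53 of 58 and 10 of 10 members, and at least 2 Cd3 UMIs in 71, 58 and 10. Ccl5, the sixth marker and one the rule did not use, had a UMI in 83.3%, 82.8% and 100% of members. It also had one in 68.2%, 19.3% and 23.5% of B cells, which should not make it, so having a Ccl5 UMI set members apart least in library 1. At least 2 Cd4 UMIs were found in 48 of 72, 24 of 58 and 1 of 10 members. A Cd4 UMI also appeared in 15.2%, 12.5% and 2.04% of T cells with at least 2 Cd8 UMIs and 2 cytotoxic genes, and in 2.97%, 2.72% and 0% of B cells. Of those Cd8-positive T cells with a Cd4 UMI, 78 of 125, 37 of 90 and 1 of 2 had at least 2. Having 2 Cd4 UMIs thus did not set the members apart from such cells in libraries 1 and 2. Among T cells with 2 cytotoxic genes and no UMI of Cd8, Foxp3, Il21 or Il10, a Cd4 UMI appeared in 21.8%, 14.5% and 6.41%, and those are the members. Whether some members are CD8 T cells with missed Cd8 transcripts, or regulatory T cells with missed Foxp3 transcripts, was not tested. Genes that separate the CD4 and CD8 lineages are given with the CD8 comparison.

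Transcripts of other cell types moved with the members in libraries 1 and 2. Tyrobp and Fcer1g, signalling adaptors of NK and myeloid cells, together with Ncr1 and Klrb1c, NK receptors, had at least 1 UMI in 21 of 72, 18 of 58 and 1 of 10 members, against 46 of 383, 67 of 535 and 4 of 154 other CD4 T cells. The 6-gene NK list summed to 1380, 1800 and 42.3 CPM (UMIs per 1e6 UMIs of the class, unscaled) in the members and 602, 297 and 184 in the other CD4 T cells. Their part in the results was not tested beyond the values with and without such cells given below. Klrb1c was at 0 in the members of libraries 2 and 3, and Ncr1, Tyrobp, Klra4 and Klra8 were at 0 in those of library 3. The 5 dendritic cell genes summed to 195, 114 and 0 unscaled CPM against 61.2, 29.1 and 3.12, and the 5 gamma delta genes to 37.9, 76.3 and 0 against 24.8, 22.3 and 3.12. Macrophage genes summed to 601, 712 and 42.3 against 488, 555 and 683, and B cell genes to 165, 76.3 and 0 against 114, 87.3 and 59.2. Trav11 and Zbtb16, the defining genes of invariant NKT cells, were at 0 in the members of every library, but so was Trav11 in all 4 classes, and Zbtb16 had 1 UMI in the other CD4 T cells, so these zeros do not set the members apart.

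The 40 members with a UMI of at least 1 of the 4 NK genes were deep cells, with a mean of 9120 UMIs in library 1 and 6967 in library 2 against 3492 and 2762 for the remaining members, and held 51.0% of all the members' UMIs. Of 153 Gzma UMIs (granzyme A), 151 were in 7 such cells, as were 22 of 22 Klra1, 12 of 12 Klra6, 32 of 33 Klra4 and 17 of 18 Klrg1 UMIs in 8, 5, 5 and 7 of these cells. They also held 132 of 143 UMIs of Mt1, a metallothionein, and 137 of 158 of Cd7, in 10 and 20 of these cells. Of Gzmb they held 318 of 418 UMIs and of Prf1 75 of 98, in 18 and 11 cells. A UMI of Gzmb or Prf1 was found in 69 and 32 of all 140 members, so most members with either gene had no NK gene. The highest Gzmb count of 1 member was 140 UMIs, in library 2. Of the 40 cells, 33 had a UMI of Tyrobp, 28 of Fcer1g, 5 of Ncr1 and 3 of Klrb1c. Of the macrophage genes they held 279 of 287 Lyz2, 36 of 43 Cd68, 17 of 17 Fcgr1, 13 of 13 Csf1r and 16 of 31 Apoe UMIs. Of the dendritic cell genes they held 27 of 28 Flt3, 25 of 25 Cd209a and 22 of 22 Itgax UMIs. Other genes lay mainly in the 100 members without an NK gene, which held 4561 of 6561 Ccl5 UMIs, 135 of 199 Gzmk, 36 of 50 Klrc1 and 67 of 94 Cd40lg UMIs. Granzyme A and the Klra receptors were thus read almost wholly from a few of these cells, which carried NK or myeloid transcripts, and Ccl5, Gzmk and Klrc1 were not. Members with an NK gene are named so below by the 4 genes only, and their cell type was not tested.

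**Figure D2:**
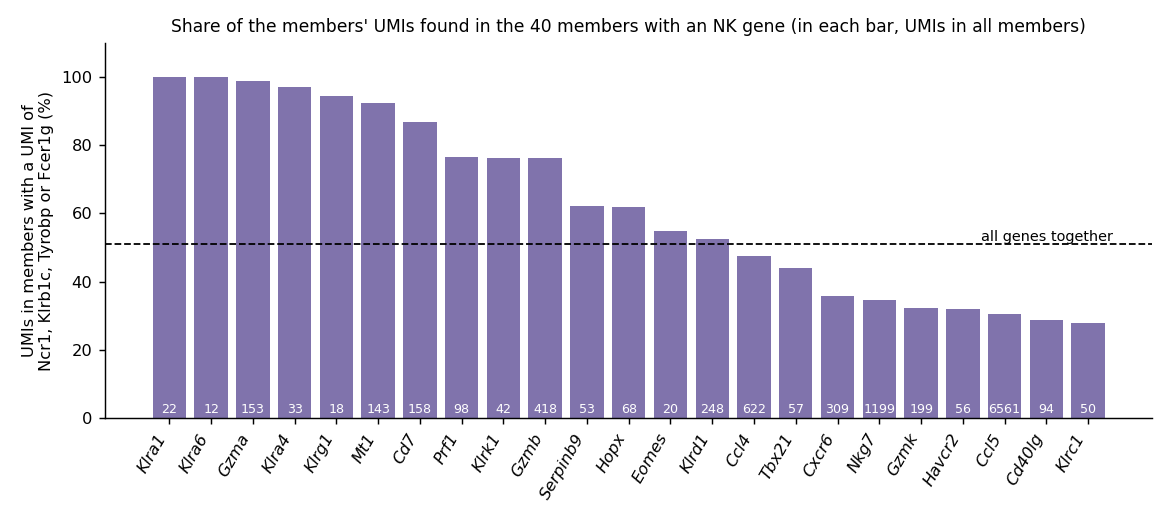
Percent of each gene's UMIs in the 140 members (y axis) that lay in the 40 members with a UMI of Ncr1, Klrb1c, Tyrobp or Fcer1g, with the gene's UMIs in all members written in each bar and a dashed line at the 51.0% of all UMIs that these cells held. Gzma, Mt1 and the Klra genes lay far above the line, Ccl5, Gzmk, Klrc1 and Cd40lg below it.

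To ask what set these cells apart within the CD4 lineage, their UMIs were summed per library and compared with the other CD4 T cells, which passed the same rule with 0 or 1 of the 5 genes (383, 535 and 154 cells). Members carried more transcripts of inflammatory chemokines, of granzyme K, of the chemokine receptor Cxcr6 and of the inhibitory receptors Pdcd1, Havcr2 and Lag3, and fewer of the memory factor Tcf7 and of several helper ligands. Of 7053 genes tested, 87 were higher and 35 lower (1.73% called, 1.23% higher and 0.496% lower) at an adjusted p under 0.05 in edgeR's quasi-likelihood test with Benjamini-Hochberg adjustment and library as a block; without the block 6 genes passed. The classes were split by 5 genes of the killing programme, and p-values measure the spread between 3 libraries. All 3 member sums lay above all 3 other sums for 2.48% of genes tested, and below for 7.77%. One UMI in the 10 members of library 3 was worth about 33.2 CPM (from here scaled by TMM, a library size correction), and levels there are coarse.

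Ccl5, the chemokine RANTES, was the clearest difference. Its level was 5308, 18790 and 18510 CPM in the members of libraries 1 to 3 and 771, 1908 and 1327 CPM in the other CD4 T cells, and no member sum overlapped the other class. The log2 difference was 3.27 (SE 0.24, adjusted p = 1.29e-10). Ccl3 and Ccl4, related inflammatory chemokines, rose as well. Ccl4 stood at 826.2, 1335 and 663.6 CPM against 288.9, 315.7 and 80.7 (log2 1.97, SE 0.30, adjusted p = 0.000139). Under the alternatives for processing and cells the Ccl4 difference ranged from 0.40 to 3.21, and its call was kept in 14 and lost in 3. Ccl3 stood at 99.8, 832.3 and 132.7 CPM against 36.4, 67.2 and 29.3 (log2 2.85, SE 0.38, adjusted p = 1.87e-05), with the largest gap in library 2, without which the difference was 1.41 and did not pass. In the mm10 build, GENCODE M21 places Ccl5 at chr11:83525778-83530518 on the minus strand, with Ccl3 at chr11:83647844-83649355 (minus) and Ccl4 at chr11:83662584-83664683 (plus), within 1 chemokine cluster.

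Among 16 tested chemokine and homing receptor genes, 5 were higher and 1 lower (median log2 difference 0.33, against -0.04 over all genes tested). Cxcr6, a receptor of tissue T cells, was at 544.8, 440.1 and 132.7 CPM in the members and 328.8, 150.9 and 55.0 in the other CD4 T cells, higher within each library although the ranges of the classes overlapped (log2 1.16, SE 0.23, adjusted p = 0.00309). S1pr1, which directs exit from tissue into lymph and blood, fell, at 163.7, 105.2 and 33.2 CPM against 396.6, 263.1 and 267.6 (log2 -1.33, SE 0.22, adjusted p = 0.000324). Ccr2 was at 299.3, 239.2 and 132.7 CPM against 249.6, 77.3 and 73.3 and did not pass (adjusted p = 0.0634).

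Of the granule and killing genes outside the rule, 5 of 16 tested were higher and none lower (median log2 difference 0.65). Gzmk, a granzyme typical of memory T cells in tissue, had 317.2, 334.8 and 165.9 CPM in the members against 97.7, 103.3 and 99.0, with no overlap (log2 1.62, SE 0.20, adjusted p = 6.13e-06). Slamf7, an activating receptor, rose by 2.02 (SE 0.38, adjusted p = 0.00157) on 36 UMIs in the members and none in library 3. Serpinb9, which protects a killer cell from its own granzyme B, and Ctsw, a cathepsin of cytotoxic cells, rose by 1.46 and 0.92 (SE 0.31 and 0.17, adjusted p = 0.00597 and 0.00157). Gzma was called higher too, at 289, 191.3 and 0 CPM against 6.42, 8.24 and 7.33, with a log2 difference of 5.08 (SE 0.49, adjusted p = 4.54e-08). Without cells that had a UMI of an NK gene the difference was -0.16 (adjusted p = 0.988), as those cells held nearly all its UMIs. Fasl, the death ligand, was at 245.6, 110 and 298.6 CPM against 149.8, 88.8 and 113.6 and did not pass (adjusted p = 0.12).

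Of the receptors and adaptors known from NK cells, most of them lectin-like, 11 of 15 tested were higher (median log2 difference 3.54). Klrc1, which encodes NKG2A, the partner of CD94, was at 89.5, 47.8 and 165.9 CPM in the members and 28.5, 3.80 and 14.7 in the other CD4 T cells, with no overlap (log2 2.30, SE 0.39, adjusted p = 0.00049). Klri2, a related lectin-like receptor, was at 20.5, 52.6 and 99.5 CPM against 2.14, 0.634 and 7.33 (log2 4.08, SE 0.76, adjusted p = 0.00146). Klrk1, for the stress ligand receptor NKG2D, rose by 1.65 (SE 0.38, adjusted p = 0.013). Klrd1, which chose part of the members, and Klrc1 lie in the NK gene complex on chromosome 6 (chr6:129591782-129598775 and chr6:129666015-129678973), and CD94 and NKG2A form 1 receptor. Reads of Klrc1 and its near copy Klrc2 may be split between them, so their levels are less certain. Of the Klra (Ly49) genes, 5 were called higher, and 9 of 10 Klra5 and 51 of 51 Klra9 UMIs were also in the members with an NK gene. These receptors are near-identical copies, so which Klra gene a UMI belongs to is uncertain. Cd244a and Klrg1, called higher too, had 15 of 15 and 17 of 18 UMIs in those members, against 14 of 50 for Klrc1 and 7 of 16 for Klre1. The count of 11 and the median thus rest in part on those members.

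Of 11 tested transcription factors of the cytotoxic programme, 5 were called higher and none lower (median log2 difference 0.85). Not all went up, since Stat4 had a mean of 133.6 CPM in the members against 233.1 and was not called. Eomes was at 40.9, 19.1 and 0 CPM against 9.27, 4.44 and 0 (log2 2.17, SE 0.48, adjusted p = 0.0101), on 20 UMIs. Runx3 was at 158.6, 153.1 and 99.5 CPM against 77.0, 72.9 and 77.0, with no overlap (log2 0.98, SE 0.24, adjusted p = 0.0204). Tbx21 was at 92.1, 90.9 and 66.4 CPM against 50.6, 38.0 and 36.7 (log2 1.07, SE 0.27, adjusted p = 0.0293), and Id2 and Hopx rose by 0.85 and 1.68 (SE 0.18 and 0.30, adjusted p = 0.00792 and 0.00103). On the helper and resting side 1 of 16 rose and 1 fell. Tcf7, which encodes TCF1, fell to 79.3, 67.0 and 0 CPM from 205.4, 193.3 and 165 (log2 -1.55, SE 0.25, adjusted p = 0.000243). Zbtb7b had 5 UMIs in the members and was not informative at this depth (adjusted p = 0.652).

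Eomes and T-bet bind T-box motifs and Runx3 binds Runx motifs. The 250 bases before the RefSeq start (GRCm38.p6, the reference strain's sequence and not NOD's) of 9 genes that differed from the other CD4 T cells were searched on both strands for the T-box core GGTGTGA and the Runx core TGTGGT. The table did not hold Ccl5 or Ccl4. The T-box core was found in Gzmk alone, and the Runx core in Ccl3, Klrc1, Cxcr6 and Havcr2, whereas 3.33% and 14.0% of all 32851 promoters in the table held them. The sequences of Gzmk (chr13:113180966-113181215, minus strand) and Havcr2 (chr11:46454681-46454930, plus strand) are shown 5′ to 3′ as 1 example of each core on the gene's own strand, with the core in capitals.
Gzmk: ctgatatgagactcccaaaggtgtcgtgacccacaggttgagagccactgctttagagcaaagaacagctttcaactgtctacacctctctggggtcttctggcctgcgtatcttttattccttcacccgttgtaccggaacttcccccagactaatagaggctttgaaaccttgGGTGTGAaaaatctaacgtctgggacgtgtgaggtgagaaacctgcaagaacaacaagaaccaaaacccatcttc
Havcr2: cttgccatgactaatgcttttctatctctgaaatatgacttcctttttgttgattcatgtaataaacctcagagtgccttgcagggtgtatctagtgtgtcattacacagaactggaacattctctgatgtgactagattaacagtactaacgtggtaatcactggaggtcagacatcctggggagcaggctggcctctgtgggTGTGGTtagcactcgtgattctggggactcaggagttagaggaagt
The Gzmk core lay 75 to 69 bases before the start and the Havcr2 core 46 to 41 bases before it. The Runx core of Cxcr6 lay nearer, 10 to 5 bases before the start, on the opposite strand. A match is a run of letters and was not tested as a binding site.

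In the checkpoint and costimulation list 4 of 14 tested genes were higher and none lower (median log2 difference 0.10), the inhibitory receptors Pdcd1, Havcr2 and Lag3 and the ectoenzyme Entpd1. Pdcd1, for PD-1, was at 552.5, 301.3 and 763.1 CPM against 365.9, 185.7 and 249.3 (log2 0.83, SE 0.19, adjusted p = 0.0161). Havcr2, for TIM-3, was at 76.7, 124.4 and 0 CPM against 27.1, 20.3 and 0 (log2 2.00, SE 0.40, adjusted p = 0.00329), so library 3 gave no information on it. Entpd1, for CD39, and Lag3 rose by 1.38 and 0.73 (SE 0.28 and 0.19, adjusted p = 0.00389 and 0.0418). Other inhibitory receptors did not pass, with log2 differences of 0.01 for Ctla4, 0.32 for Tigit and -0.60 for Btla (SE 0.17, 0.19 and 0.38, adjusted p = 0.996, 0.6 and 0.636).

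Helper ligands were the group that fell. Of 8 cytokine and ligand genes tested 3 were lower and none higher (median log2 difference -0.83). Tnfsf8, for CD30 ligand, was at 76.7, 86.1 and 0 CPM against 332.4, 211.7 and 458.2 (log2 -2.03, SE 0.27, adjusted p = 1.87e-05). Tnfsf11, for RANKL, and Lta, for lymphotoxin alpha, fell by 1.46 and 1.94 on the log2 scale (SE 0.25 and 0.48, adjusted p = 0.000513 and 0.0276). CD40 ligand was different. Cd40lg was at 153.5, 148.3 and 99.5 CPM against 228.2, 199.7 and 263.9, lower in each library but short of the threshold (log2 -0.61, SE 0.22, adjusted p = 0.235). Ifng was at 115.1, 712.7 and 298.6 CPM against 126.2, 212.4 and 194.3, higher in 2 of 3 libraries, and did not pass (log2 1.06, SE 0.30, adjusted p = 0.0666). Without the cells with an NK gene it passed, at 1.47 (adjusted p = 0.0029).

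The 10 largest differences in each direction that held in every library, at 50 CPM or more in the higher class, added Cd7, Mt1 and Arsb, the lysosomal arylsulfatase B, to the rise. Arsb was at 133, 129.1 and 66.4 CPM against 35.7, 37.4 and 18.3 (log2 1.80, SE 0.25, adjusted p = 3.12e-05). Slamf6, Nsg2, Asap1, Cd81 and Apoe were among those that fell. Slamf6, a receptor of less differentiated T cells, was at 110, 52.6 and 33.2 CPM against 213.3, 219.3 and 219.9 (log2 -1.42, SE 0.24, adjusted p = 0.00049). Nsg2 was at 12.8, 9.57 and 0 CPM against 54.2, 92.6 and 55.0 (log2 -2.64, SE 0.44, adjusted p = 0.000437). Asap1 and Cd81, a tetraspanin, fell by 1.63 and 1.57 on the log2 scale (SE 0.31 and 0.41, adjusted p = 0.00197 and 0.0373), the first not without library 1 (-1.73) and the second not without library 2 or 3 (-1.24 and -1.49). Apoe, a lipid carrier made mainly by macrophages, was at 2.56, 143.5 and 0 CPM against 53.5, 368.3 and 667.2 (log2 -2.34, SE 0.57, adjusted p = 0.0234). Its difference was -1.77 without library 3 and -0.20 without cells with an NK gene, neither past the threshold. The histone gene Hist1h2ap had 1 UMI in the members against 147, and its call was lost without library 3 (adjusted p = 0.228) and without cells with an NK gene (adjusted p = 0.1).

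The differences were next computed in cells with a Trbv UMI and no UMI of Ncr1, Klrb1c, Tyrobp, Fcer1g, Trdc, Flt3 or Itgax, a set chosen after the data were seen that kept 46, 36 and 9 members. There 41 genes were called, against 122. Ccl5 (log2 3.67), Ccl3 (4.18), Ccl4 (3.21), Gzmk (2.02), Klrc1 (2.46), Cxcr6 (1.28), Havcr2 (2.78), Slamf7 (2.91), Arsb (1.70), Entpd1 (1.69), Pdcd1 (1.09), Lag3 (0.98) and Id2 (0.93) stayed higher past the threshold, and Tcf7 (-1.27), Tnfsf8 (-2.19), Nsg2 (-2.56) and Slamf6 (-1.16) stayed lower. Fasl and Ifng passed there, at 1.07 and 1.37 (adjusted p = 0.0137 and 0.0321). Calls were lost for Gzma, Cd7 (1.12), Mt1 (1.37), Eomes (2.06), Hopx (1.46), Klrk1 (1.81), Tbx21 (0.96) and Runx3 (1.10), all but Gzma with the same direction, and Klra1, Klra4, Klra6 and Klrg1 had too few UMIs to be tested. Leaving out library 2 also ended the calls of Cxcr6 (0.90), Pdcd1 (0.96), Entpd1 (1.25), Nsg2 (-2.26) and Slamf6 (-1.14), and leaving out library 1 those of Slamf7 (2.16) and Id2 (0.93). Id2 (0.87) was also lost without library 2, Pdcd1 (0.64) without library 3, and Lag3 without library 1 (0.79) or library 2 (0.47). The calls of Runx3 (0.91 to 1.01) and Tbx21 (0.92 to 1.23) were lost whichever library was left out, those of Hopx and Klrk1 without library 2 (1.12 and 0.92) or 3 (1.57 and 1.56), and those of Serpinb9 without library 1 or 2 (1.5 and 1.38). Further losses were Eomes (2.11) without library 1, Ctsw (0.82) and Klri2 (3.05) without library 2, and Lta without library 1 or 3 (-1.18 and -2.02).

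Chemokine and helper genes also differed along the number of killing genes a cell showed, given as a description since that number chose the cells. In libraries 1 and 2, Ccl5 was at 435 and 535 unscaled CPM in cells with none of the 5 genes. With 1 gene, just outside the rule, it was at 1170 and 3440, with 2 genes, just inside, at 3910 and 16400, and with 3 to 5 genes at 12400 and 17600. Tcf7 went the other way, from 299 and 238 with none through 160 and 81.4 with 1 to 102 and 74.5 with 2 genes. Tnfsf8 was at 413 and 209, 318 and 164, and 98.2 and 90.5 for 0, 1 and 2 genes. Cells just outside the rule thus had intermediate levels of Ccl5 and Tcf7, with library 3 in the same order at 763, 2260 and 17700 for Ccl5 and 169, 51.1 and 0 for Tcf7.

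**Figure D3:**
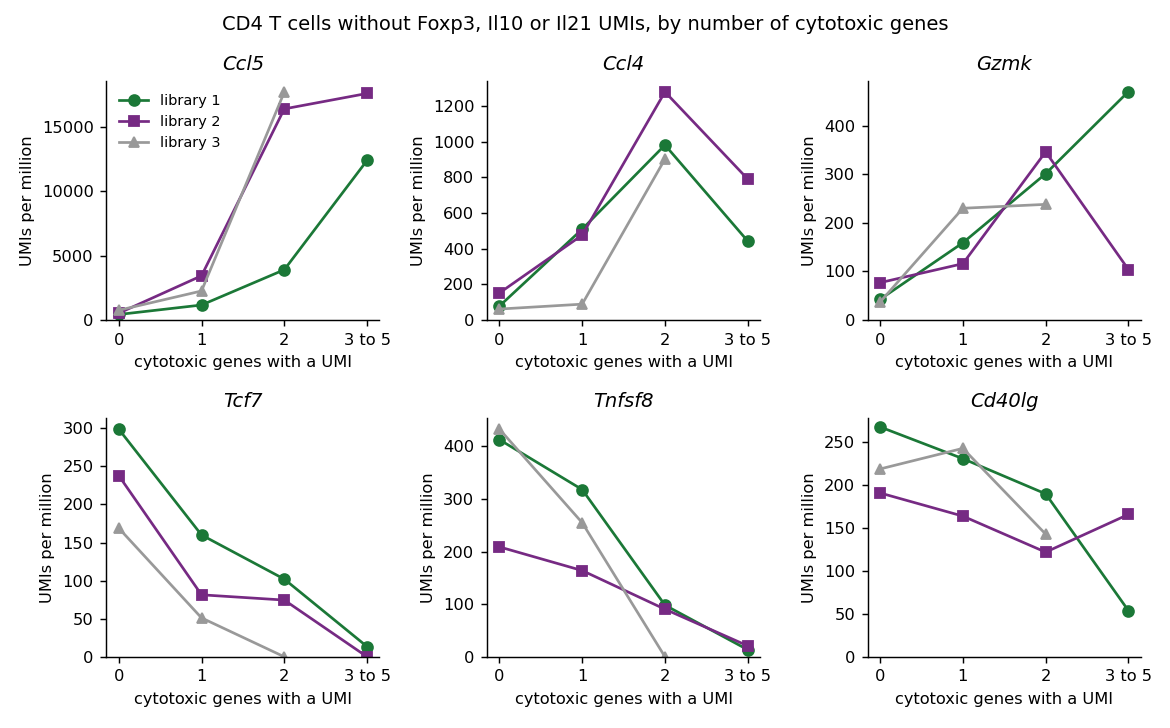
Level in unscaled CPM (y axis) of 6 genes in CD4 T cells without Foxp3, Il10 or Il21 UMIs, by the number of the 5 cytotoxic genes with a UMI (x axis), 1 line per library; for library 3 the last class held 1 cell and is not drawn. Ccl5 was higher and Tcf7 and Tnfsf8 lower at each step from 0 to 2 genes, and Ccl4 and Gzmk were highest at 2 genes in library 2.

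To ask how close the cells came to CD8 killers, they were compared with cytotoxic CD8 T cells, which had a Cd8a or Cd8b1 UMI, no Cd4 UMI and at least 2 of the same 5 genes (707, 655 and 129 cells). Members had higher levels of several ligands and receptors known from CD4 T cells. They had lower levels of several NK receptors, of Eomes, of granzyme K and of cell division genes. Of 7053 genes tested, 225 were higher and 108 lower (4.72% called, 3.19% higher and 1.53% lower), and without the block 30 passed. All 3 member sums lay above the CD8 sums for 3.45% of genes and below for 8.59%.

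Cd40lg had the largest rise, at 153.5, 148.3 and 99.5 CPM in the members and 3.51, 5.17 and 0 in the cytotoxic CD8 T cells (log2 5.15, SE 0.32, adjusted p = 1.8e-12), with no overlap. Tnfrsf4, for the costimulatory receptor OX40, was at 539.7, 684 and 398.2 CPM against 60.7, 57.9 and 71.0 (log2 3.26, SE 0.21, adjusted p = 2.81e-12). Maf was at 212.3, 315.7 and 331.8 CPM against 50.2, 55.5 and 92.6 (log2 2.21, SE 0.22, adjusted p = 5.57e-08). These genes took no part in the rule, and the mean Cd40lg level of 133.8 CPM in the members lay between 2.89 in cytotoxic CD8 and 230.6 in other CD4 T cells. In CD4 T cells with at least 2 Cd4 UMIs, a set chosen after the data were seen in which library 3 had 1 member and was left out, the Cd40lg difference to CD8 was 5.48, and to the other CD4 T cells -0.39 (adjusted p = 0.899). Many other calls were lost in that set. Against other CD4 T cells it kept 48 of the 122 calls, and 19 named genes lost theirs while 33 did not change. Against CD8 T cells 8 named genes lost the call and 1 reversed, with 32 unchanged. Against Il10 or Il21 cells 14 lost it and 2 reversed, with 22 unchanged.

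Of the 8 cytokine and ligand genes 4 were higher and none lower (median log2 difference 1.69, against -0.05 over all genes). Tnfsf8 rose by 3.15 and Tnfsf11 by 2.44 (SE 0.38 and 0.31, adjusted p = 1.22e-06 and 3.11e-06), although both were below the other CD4 T cells. Il2, the T cell growth factor, was at 25.6, 14.3 and 0 CPM against 0.753, 2.07 and 0 (log2 3.84, SE 0.85, adjusted p = 0.00399), on 13 UMIs in the members. Il7r and Il2ra, for the IL-7 and high-affinity IL-2 receptors, rose by 1.22 and 1.54 (SE 0.19 and 0.36, adjusted p = 6.77e-05 and 0.00723). In the checkpoint and costimulation list 5 of 14 were higher and 1 lower, with Icos and Tnfrsf18 (GITR) at differences of 0.73 and 1.25 (SE 0.17 and 0.18, adjusted p = 0.00749 and 2.44e-05) and Pdcd1 lower, at -0.72 (SE 0.19, adjusted p = 0.0169). Of 6 tested genes of a regulatory T cell list 5 were higher and none lower, among them Ctla4, Tnfrsf4, Tnfrsf18 and Il2ra. None of the 6 was called against the other CD4 T cells. The list summed to 2380, 2000 and 2620 unscaled CPM in the members and 1010, 901 and 866 in the CD8 cells. In the other CD4 T cells it summed to 3100, 1950 and 2810. Gata3 rose by 1.40 (SE 0.32, adjusted p = 0.00541), and S1pr1 by 1.16 (SE 0.24, adjusted p = 0.00208). Izumo1r, Tiam1, Tbc1d4, Ccr8, Socs2, Cxcl10 and Ctsl were among the 10 largest rises, with differences of 2.57, 2.97, 2.28, 2.41, 2.62, 2.37 and 2.21. Those of Cxcl10, an interferon-induced chemokine, and Ctsl, a cathepsin, did not pass without library 1 (1.18 and 1.00), whose member sums were the highest, and that of Cxcl10 not without cells with an NK gene (1.35). Izumo1r, for folate receptor 4 of CD4 T cells, was at 166.3, 215.2 and 232.3 CPM against 29.9, 34.1 and 37.0.

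On the killing side, 2 of 16 granule genes outside the rule were lower and none higher (median log2 difference -0.22). Gzmk was at 317.2, 334.8 and 165.9 CPM against 688.9, 538.7 and 620.4, with no overlap (log2 -0.99, SE 0.18, adjusted p = 0.000385), so the members lay between the other CD4 T cells and the CD8 cells. Ccl5 was likewise intermediate, at 16390, 33370 and 47950 CPM in the CD8 cells (log2 -1.26, SE 0.22, adjusted p = 0.000321). Ctsw was lower, at -0.76 (SE 0.16, adjusted p = 0.00313). Gzma did not pass (log2 -0.52, SE 0.32, adjusted p = 0.49) with 168.8, 442.6 and 919.8 CPM in the CD8 cells. Without the cells with an NK gene UMI it was lower, at -5.35 (adjusted p = 8.95e-10), and Gzma was thus scarce in most members while present in cytotoxic CD8 T cells. Fasl, Havcr2 and Tbx21 had differences of -0.45, -0.44 and -0.20 (SE 0.20, 0.32 and 0.24, adjusted p = 0.273, 0.578 and 0.777), and did not pass.

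NK receptors were lower in 6 of 15 tested genes and higher in none (median log2 difference -0.54). Klrc1 was at 89.5, 47.8 and 165.9 CPM against 721, 460.6 and 969.2 (log2 -3.11, SE 0.27, adjusted p = 1.82e-09), far below the CD8 cells although above the other CD4 T cells. Klrk1 and Klre1 were lower, at -2.02 and -2.38 (SE 0.28 and 0.34, adjusted p = 1.22e-05 and 1.88e-05), and Cd160 had 4 UMIs in the members against 424 (log2 -3.20, SE 0.54, adjusted p = 0.000182). Klrc2 had 3 UMIs against 440. Eomes fell by 1.93 on the log2 scale (SE 0.31, adjusted p = 0.000106), and was at 143.2, 77.2 and 74.1 CPM in the CD8 cells. Cxcr6 was lower, at -0.74 (SE 0.22, adjusted p = 0.0481), and it did not pass without library 1 or without library 3 (-0.65 and -0.64).

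Leaving out library 1 ended the calls of Gzmk (-0.87), Eomes (-2.20), Klre1 (-1.85), S1pr1 (1.05), Il2 (2.69) and Ccr8 (1.90). Those of Gata3 were lost without library 1 or 3 (1.61 and 1.19), those of Icos, Il2ra, Ctsw and Pdcd1 without library 1 (0.77, 1.31, -0.71 and -0.74) or 2 (0.67, 1.69, -0.79 and -0.44), and that of Socs2 without library 2 (2.01).

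Division genes were lower in 4 of 8 tested (median log2 difference -1.31), among them Top2a, for topoisomerase II alpha, at 10.2, 14.4 and 0 CPM against 83.5, 79.6 and 52.5 (log2 -2.77, SE 0.51, adjusted p = 0.000457). Rrm2, a ribonucleotide reductase subunit, was at 7.67, 4.78 and 0 CPM against 46.7, 81.0 and 89.5. Pclaf, Hist1h1b and Ube2c, also of dividing cells, were lower, at -2.37, -2.29 and -2.24 (SE 0.54, 0.52 and 0.57, adjusted p = 0.00534, 0.00565 and 0.0145), and Hist1h2ap had 1 UMI against 560. Without library 2 the calls of Hist1h1b (-1.13) and Ube2c (-1.43) were lost, and without library 3 those of Pclaf (-2.23) and Ube2c (-2.36). A Mki67 or Top2a UMI was found in 13 of 72, 3 of 58 and 0 of 10 members, against 164 of 707, 103 of 655 and 14 of 129 cytotoxic CD8 T cells. The members' shares were 18.1%, 5.17% and 0%, and those of the CD8 cells 23.2%, 15.7% and 10.9%, nearest in library 1. Among other CD4 T cells the counts were 49 of 383, 43 of 535 and 11 of 154.

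**Figure D4:**
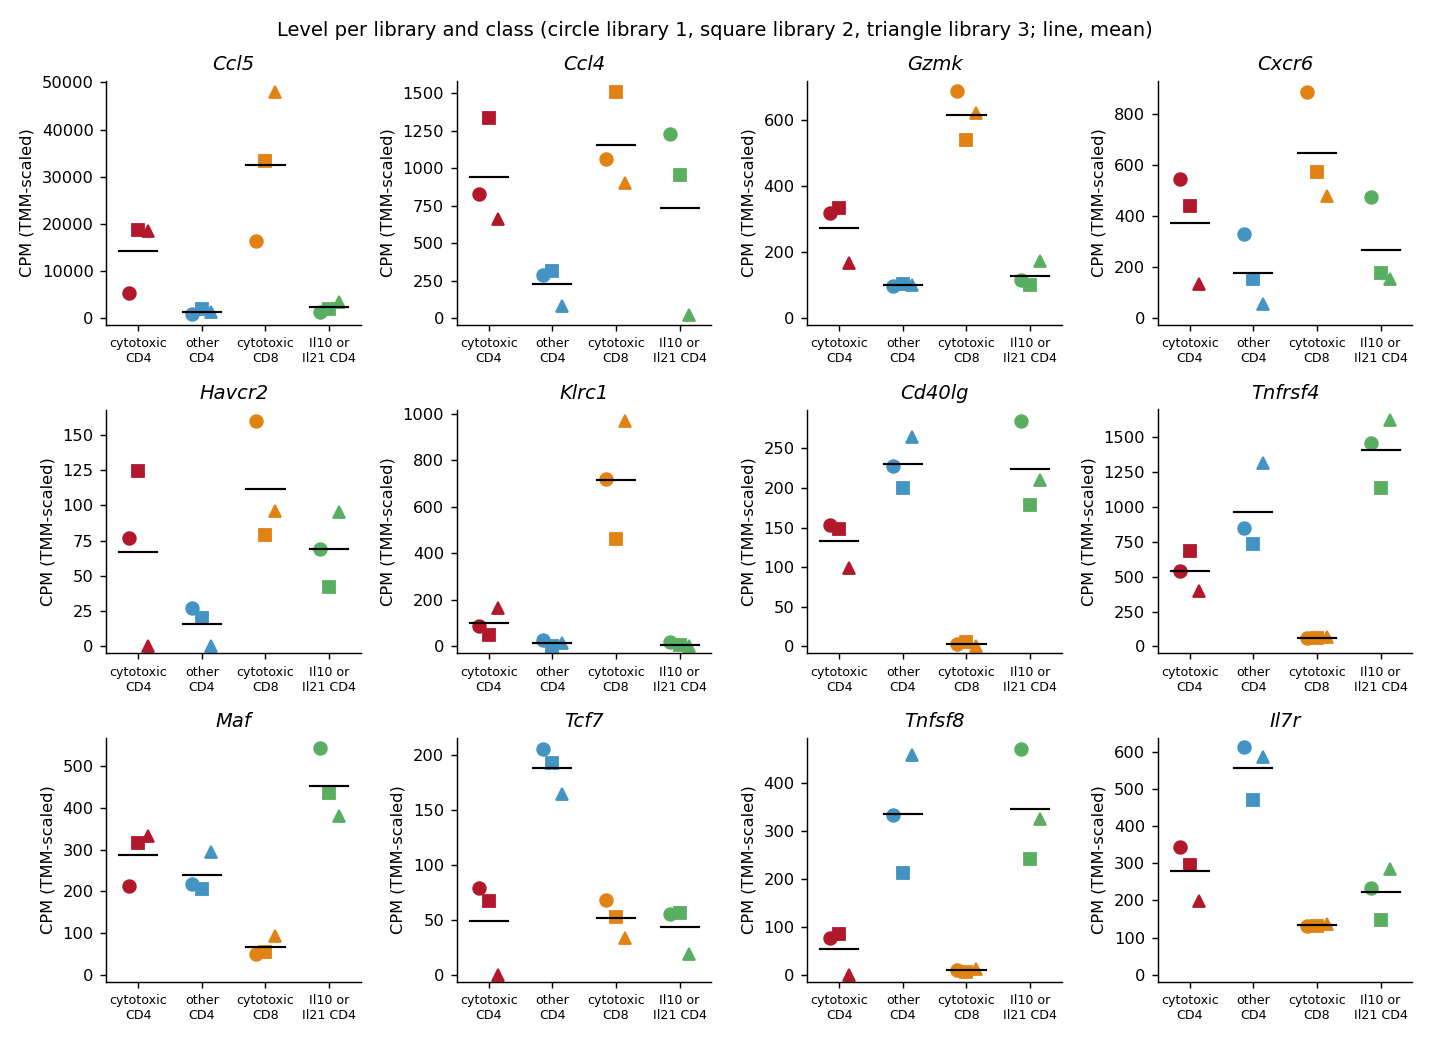
Level (CPM, TMM-scaled, y axis) of 12 genes in 4 classes (x axis), 1 point per library (circle, square and triangle for libraries 1 to 3) with the mean of 3 libraries as a line. Ccl5 and Gzmk in the members lay between other CD4 and cytotoxic CD8 T cells, and Cd40lg, Tnfrsf4 and Maf lay above the cytotoxic CD8 T cells in every library.

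The last comparison was with CD4 T cells that had a UMI of Il10, a regulatory cytokine, or Il21, a cytokine of B cell help, and no Foxp3 UMI (173, 228 and 23 cells). These cells were taken whatever their cytotoxic genes, and some hold the same 5 genes. Members had more Ccl5 and killing genes and less of several receptors and of the ligands Tnfsf8, Tnfsf11 and Lta. Of 7053 genes, 50 were higher and 45 lower (1.35% called, 0.709% higher and 0.638% lower), and without the block 2 passed. All 3 member sums lay above the Il10 or Il21 sums for 3.70% of genes and below for 5.02%.

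Ccl5 was at 1311, 1996 and 3506 CPM in the Il10 or Il21 cells, below every member sum (log2 2.56, SE 0.24, adjusted p = 5.05e-08), whereas Ccl3 and Ccl4, which differed from the other CD4 T cells, did not differ past the threshold here (adjusted p = 0.966 and 0.92). Ccl3 had no steady direction, since it was called higher without library 1 (1.17, adjusted p = 0.0227) and lower without library 2 (-1.43, adjusted p = 0.0113). Among the 16 granule genes 6 were higher and none lower (median log2 difference 0.56). Gzmk rose by 1.48, Serpinb9 by 2.20, Ctsw by 0.95 and Fasl by 1.05 (SE 0.21, 0.37, 0.18 and 0.24, adjusted p = 6.25e-05, 0.00054, 0.00256 and 0.0133). Gzma was higher by 6.38 (SE 0.67, adjusted p = 3.94e-07), again from cells with an NK gene, without which it was 1.48 (adjusted p = 0.835). Klrc1 and Eomes rose by 2.67 and 2.32 (SE 0.45 and 0.54, adjusted p = 0.000623 and 0.0182). Klf2, a factor of quiescent and circulating T cells, was at 555.1, 334.8 and 99.5 CPM against 189.9, 108 and 76.2 (log2 1.52, SE 0.23, adjusted p = 0.000121). Gramd3, Arsb and Tgtp2, an interferon-induced GTPase, were also among the 10 largest rises, at 2.04, 1.76 and 1.47 (SE 0.28, 0.27 and 0.33, adjusted p = 4.02e-05, 0.000147 and 0.0149), and Tgtp2 did not pass without library 1 or 3 (adjusted p = 0.747 and 0.105). Cd7 was at 194.4, 349.2 and 298.6 CPM against 70.2, 29 and 19.1, with no overlap (log2 2.48, SE 0.35, adjusted p = 4.02e-05). Its UMIs were found in 33 members, and 137 of 158 lay in 20 members with an NK gene. Mt1, Hopx and Klri2 were higher by 1.96, 1.51 and 2.70 (SE 0.26, 0.32 and 0.71, adjusted p = 3.86e-05, 0.00791 and 0.048). Mt1 did not pass without cells with an NK gene (adjusted p = 0.604), nor Klri2 (adjusted p = 0.0847). Hopx and Klri2 did not pass without library 2 (0.59 and 1.65) or 3 (1.43 and 2.45).

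Lower were Tnfsf8, at 469.6, 241 and 323.9 CPM in the Il10 or Il21 cells (log2 -2.24, SE 0.27, adjusted p = 7.13e-06), and Ctla4, Tnfrsf4, Lag3 and Cd200 of the checkpoint and costimulation list, in which 4 of 14 tested were lower and none higher. The first 3 are receptors and Cd200 is the ligand of an inhibitory receptor. Ctla4 was at 949, 817.9 and 929 CPM against 2055, 1784 and 1810, with no overlap (log2 -1.09, SE 0.17, adjusted p = 0.000269). Lag3 was at 537.1, 526.2 and 365 CPM against 1060, 826 and 1181 (log2 -0.95, SE 0.19, adjusted p = 0.00496), although it was above the other CD4 T cells. The largest falls also held Sccpdh, at 5.12, 14.3 and 0 CPM against 81.9, 100 and 133.4 (log2 -3.49, SE 0.48, adjusted p = 4.02e-05), and Lztfl1, Cd81, Socs2, Gm45716, Cks2 and Gpm6b, at -1.90, -1.84, -1.79, -1.66, -1.57 and -1.51. Socs2 and Gm45716 did not pass without library 1 (-1.29 and -1.26), and Cd81 and Cks2 not without library 2 (-1.26 and -0.92) or 3 (-1.82 and -1.59). Top2a was at -2.38 (SE 0.56, adjusted p = 0.0193) on 7 UMIs in the members, and did not pass without library 1 or 2 (-2.57 and -2.13) or without cells with an NK gene (-1.40). Hist1h2ap had 1 UMI against 79, and did not pass without library 2 or 3 (adjusted p = 0.317 and 0.124). Maf and Il2ra were lower, at -0.85 and -1.25 (SE 0.20 and 0.30, adjusted p = 0.0248 and 0.0265). Without library 1 the calls of Lag3 (-0.92), Maf (-0.40), Serpinb9 (1.84) and Cd200 (-0.77) were lost, without library 2 that of Ctsw (0.81), and without library 3 again that of Cd200 (-1.04). Eomes was lost without library 1 or 2 (2.51 and 2.11), and Fasl (0.93 to 1.14) and Il2ra (-1.35 to -1.22) whichever library was left out. Cd40lg and Ifng had differences of -0.64 and -0.46 (SE 0.23 and 0.30, adjusted p = 0.217 and 0.702) and did not pass.

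**Figure D5:**
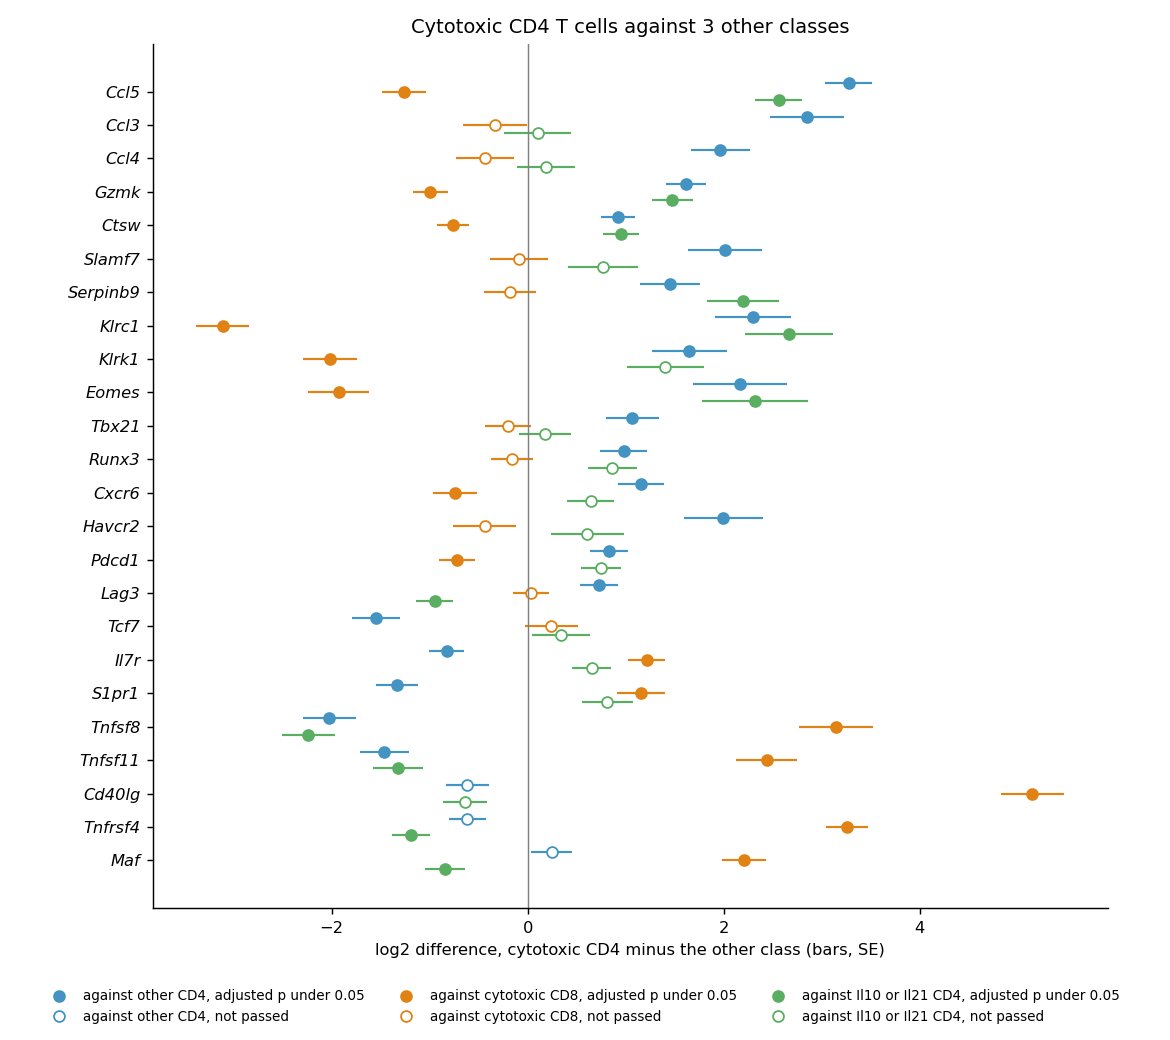
Log2 difference (x axis, cytotoxic CD4 minus the other class, bars show SE) of 24 genes (y axis) against other CD4 (blue), cytotoxic CD8 (orange) and Il10 or Il21 CD4 T cells (green), filled where the adjusted p was under 0.05. The 3 comparisons share the cytotoxic CD4 sums; Ccl5, Gzmk, Klrc1 and Eomes were higher than in both CD4 classes and lower than in cytotoxic CD8 T cells, and Cd40lg, Tnfrsf4 and Maf were higher than in cytotoxic CD8 T cells.

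Antigen receptor transcripts were described and not tested as a repertoire, since cells of 1 mouse can descend from 1 clone. More than 1 Trbv gene had UMIs in 32 of 66, 14 of 53 and 2 of 10 members with a Trbv UMI. The same held for 128 of 328, 118 of 460 and 33 of 115 other CD4 T cells, and the leading gene of such cells is less certain. The leading Trbv gene of a member was Trbv5 in 17 of 66 cells of library 1 (25.8%, 15.8 to 38.0), against 12.8% (9.39 to 16.9) of the other CD4 T cells there. It was Trbv1 in 16 of 53 members of library 2 (30.2%, 18.3 to 44.3), against 12.4% (9.52 to 15.8), and Trbv1 and Trbv13-2 in 3 of 10 each in library 3. The largest group of each mouse's members thus used a different gene in libraries 1 and 2. In library 1 Trbv19 led in 331 of 621 cytotoxic CD8 T cells (53.3%, 49.3 to 57.3) but in 7 of 66 members (10.6%, 4.37 to 20.6).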

How the data were processed

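Immune cells of 3 nerve libraries were profiled with droplet single-cell RNA sequencing. The authors aligned reads to mm10 with Cell Ranger (5.0.1 for library 1, 6.1.2 for libraries 2 and 3) and deposited the UMI counts unnormalised, as matrices with 32285 gene rows. For library 1 no separate gene list was used here, and rows were named by the order of the other libraries (Spearman correlation of row totals 0.9501 and 0.9287, threshold 0.9). Per the labels the group is neuropathic mice only. The libraries held 22983991, 55120460 and 3399733 UMIs in 3926, 8311 and 1533 barcodes.

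Cells over 5000 genes (54, 42 and 0) or 20% mitochondrial UMIs (24, 13 and 0) were left out. Doublets were kept; Scrublet (scanpy 1.11.5) marked 0, 0 and 2 cells with its automatic threshold and was judged not to have worked, so the highest scores were left out as an alternative. Counts were summed per library and class (at least 5 cells) and fitted in R 4.3.3 with edgeR 4.0.16 (quasi-likelihood, TMM, filterByExpr, 4 classes in 1 fit, library as block because classes of 1 library came from the same mice). Genes of the rule were removed before Benjamini-Hochberg adjustment over all genes tested, with a threshold of 0.05. The test was checked on simulated data for the comparison with other CD4 T cells, where 40.8% of 2-fold and 84.0% of 4-fold changes were recovered, with 2 calls among 6420 unchanged of 6620 genes. The rule for named genes took the genes of fixed lists and the 10 largest differences in each direction past the threshold, in the same direction in every library, with at least 50 CPM in the higher class, and without the rule's own, antigen receptor and ribosomal genes. List genes not named in the text stand in the lists' counts, and 1 list gene is not reported here. Members, lists and tests were chosen with earlier results of these data known. Alternatives were no TMM, DESeq2 1.42.0, no low-count filter, no block, 2 classes only, other gene and depth limits, cells left out and libraries left out.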

Additional observations from a re-analysis of the deposited data

How the results depend on the processing

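Against other CD4 T cells 122 genes were called. The count was 78 with DESeq2, 214 without the low-count filter, 6 without the replicate block, 52 with only both classes in the fit and 204 against cells with 0 of the 5 genes. It was 48 without cells with an NK gene, and, in alternatives chosen after the data were seen, 41 in cells with a Trbv UMI and no other-cell gene and 75 with at least 2 Cd4 UMIs. Leaving out 1 library gave 68 (without library 2) to 101. Against CD8 T cells, 333 became 566, 30 and 61 without the filter, without the block and with at least 3 of the 5 genes, 207, 182 and 190 in the 3 cell subsets, and 117 (without library 1) to 277 with 1 library left out. Against Il10 or Il21 cells, 95 became 175 without the filter, 2 without the block and 47 with both classes alone. The share of CD4 T cells was 0.931% with 3 genes required. The cause of these shifts was not tested.

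Apart from leaving out libraries, 1355 values of named genes under alternatives kept their side of the threshold and direction, 327 lost the call, 17 gained one and 23 reversed. Gzma against other CD4 T cells was -0.16 without NK-gene cells and -0.22 in the Trbv subset, and Ifng -0.99 with 3 genes required. Ctla4, at 0.01, was -0.052 without the filter, -0.69 with 3 genes required, -0.097 in cells with 2000 UMIs and -0.0025 without the highest doublet scores. With 3 genes required, Il2, Ctla4, Ctsw, Gzma, Cxcl10 and Ctsl against CD8 T cells were -3.00, -0.18, 0.16, 1.51, -2.82 and -0.37, and Klf2, Ccl3 and Ccl4 against Il10 or Il21 cells -0.22, -0.44 and -0.90. Ccl3 there was also -0.39 in cells with 2000 UMIs, -0.033 without dividing cells and -0.65 with 2 Cd4 UMIs. Tbx21 against CD8 T cells was 0.18, 0.17 and 0.035 in the 3 cell subsets, and Mt1 against Il10 or Il21 cells -0.086 with 2 Cd4 UMIs. With 1 library left out, Havcr2 against CD8 T cells ranged from -1.18 to 0.36 and Ifng against Il10 or Il21 cells from -1.84 to 0.32, Ccl3 and Ccl4 there from -1.43 to 1.17 and -0.11 to 0.93, and Ctla4 against other CD4 T cells from -0.043 to 0.18. With 3 genes or 2 Cd4 UMIs required, library 3 had 1 member and its sum was left out. Library 3 held 10 members, which limits every value there.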
